A study of Mus musculus with 4 samples.

Results

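The genes described here are the ectodysplasin ligand Eda, its receptors, their adaptors and a set of NF-kB genes, 9 genes chosen by name: Eda, Edar, Edaradd, Eda2r, Tnfrsf19, Traf6, Nfkbia, Relb and Nfkb2. All 9 were found by gene symbol among the 24972 genes of the deposited table, and all 9 passed the filter on low values that left 17979 genes for testing. The tissue was the mandibular dental arch, which carries the lower teeth, taken from mouse embryos at embryonic day 17.5 for polyadenylated RNA sequencing. There were 2 libraries from Ascl5 Mut/Mut embryos, homozygous for a variant of the transcription factor gene Ascl5 (libraries 18 and 14, called mutant), and 2 from Ascl5 WT/WT embryos (libraries 15 and 20, called wild type). The labels give neither the nature of the variant nor the strain, and name no treatment. They do not say whether a library is 1 embryo. The wild-type libraries differed in the sex markers given in the account of the libraries and so came from different embryos, but the labels do not state the same of the mutant libraries, whose spread may be technical. The p-values measure only the spread between these 4 samples.

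Ectodysplasin is a trimeric ligand of the tumour necrosis factor family. Its form A1 binds the receptor Edar on epithelial cells, and Edar recruits the death-domain adaptor Edaradd, which passes the signal through Traf6 and the IkB kinase complex to NF-kB. Loss of Eda, Edar or Edaradd in mice gives missing or misshapen teeth and sparse hair, and in humans it causes hypohidrotic ectodermal dysplasia. NF-kB in turn raises the transcription of some of its own regulators, among them the inhibitor gene Nfkbia and the subunit genes Nfkb2 and Relb.

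Values are the authors' normalized counts, which summed to 22134500 to 22578600 per library. Read depth itself is unknown. Ascl5 had 10.6 and 12.1 normalized counts in mutant libraries 18 and 14, against 21.8 and 37.3 in wild-type libraries 15 and 20, and did not pass the test (limma, adjusted p = 0.9999). Since the effect of the variant on the transcript is not stated, the level of Ascl5 is no check of the labels. Markers of epithelium, dental epithelium, dental mesenchyme and osteoblasts were above 0 in every library, as the labelled tissue would have. The libraries also differed in what they held. Within each genotype the 7 dental epithelium markers differed, with sums of 7438 and 4164 in mutant libraries 18 and 14, against 3776 and 9393 in wild-type libraries 15 and 20. Mutant library 14 alone held many salivary gland transcripts: 6 markers summed to 39.2 and 6122 in mutant libraries 18 and 14, against 5.26 and 0.981 in wild-type libraries 15 and 20, and 5 of the 6 were listed at 0 in at least 1 library. The 6 markers of suprabasal keratinocytes, the outer layers of skin and oral lining, did not overlap between genotypes, with sums of 109026 and 182063 in mutant and 65030 and 47532 in wild type. Of all tested genes, 13.4% were higher in mutant without overlap. Xist, transcribed from the inactive X, marked wild-type library 15 as female (38619 normalized counts) and the other libraries as male (5.005 to 12.7). The part of these differences in the results below was not tested, unless a value without that library is given.

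None of the 9 genes passed the test of mutant against wild type. The test was limma on log2(value + 0.5) with Benjamini-Hochberg adjustment over all 17979 genes, and it called 2 genes, 0.0111% of those tested. All 9 genes had an adjusted p of 0.9999, and none had an unadjusted p under 0.05, which 4.27% of all tested genes had. Of the 9, 5 lay higher in mutant and 4 lower, with a median log2 fold change of 0.0059, while the median over all tested genes was 0.0025 and 50.6% of them lay higher. Nfkb2 was the only one whose values did not overlap between genotypes, 1 of 9, where 27.4% of all tested genes did not overlap. It was lower in mutant, as were 14% of all tested genes without overlap. No gene of the 9 was higher in mutant without overlap, against 13.4% of all tested genes. With 2 libraries per genotype the 95% intervals reached as far as 2.16-fold higher in mutant (Edar), and missing the threshold does not show equal levels. In bulk tissue, fewer cells of a type and less RNA per cell cannot be told apart.

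**Figure D1:**
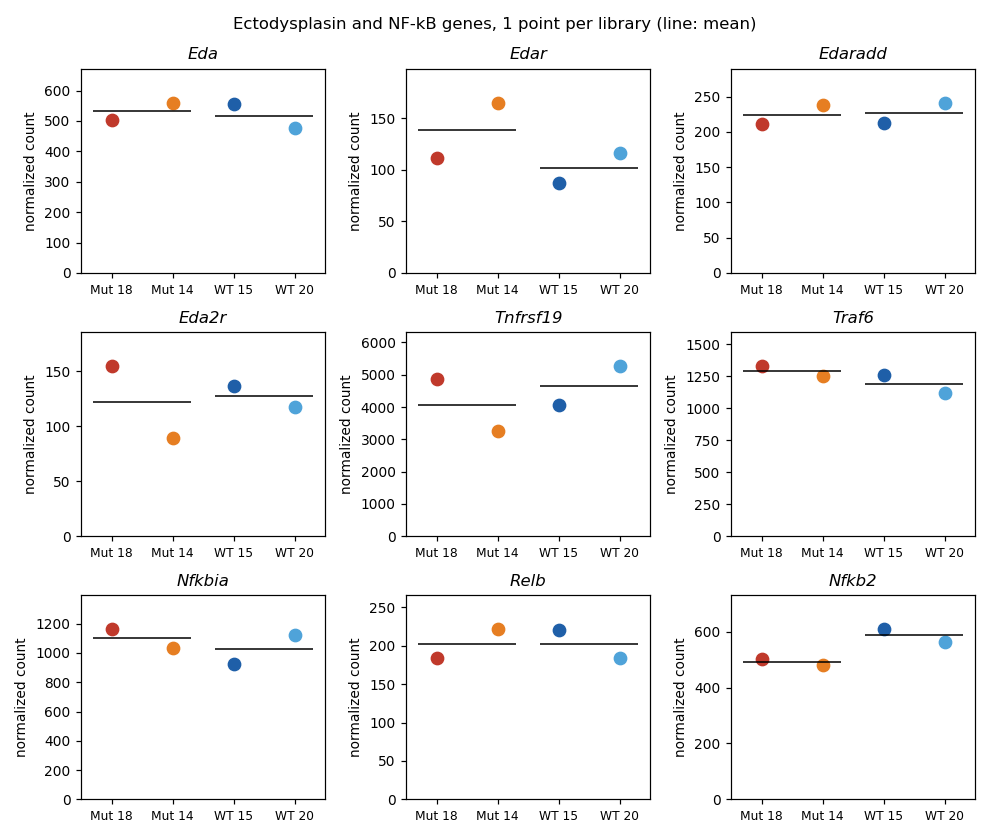
Normalized counts of the 9 genes, 1 panel per gene and 1 point per library, with mutant libraries 18 and 14 left of wild-type libraries 15 and 20 and a line at each genotype's mean. Nfkb2 is the 1 panel in which both mutant points (503 and 479) lie below both wild-type points (609 and 564).

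Eda, the ligand gene (ENSMUSG00000059327, chromosome X, 99975606 to 100400762, plus strand, GRCm38), had 503 and 560 normalized counts in mutant libraries 18 and 14, against 557 and 478 in wild-type libraries 15 and 20. Its genotypes overlapped, and its highest and lowest libraries differed only 1.17-fold. The means were 532 ± 40.1 in mutant and 517 ± 55.5 in wild type (SD, n = 2 each), a log2 fold change of 0.042 (SE 0.16, 95% interval -0.34 to 0.42). Eda is X-linked. The female library 15 was within the range of the 3 male libraries, and without it the log2 fold change was 0.15.

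The value of Eda sums splice forms that bind different receptors. GENCODE M21 lists 12 transcripts of the gene, 9 of them coding. Their coding exon chrX:100395019-100395149 can end 6 bases earlier, and this choice separates form A1, which binds Edar, from form A2, which binds Eda2r. The spliced transcripts are shown over this junction, from transcript Eda-206 for A1 and Eda-205 for A2, 5′ to 3′ on the plus strand, with 24 bases on either side and the 6 extra bases in capitals.
Eda A1: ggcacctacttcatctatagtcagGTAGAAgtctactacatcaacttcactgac
Eda A2: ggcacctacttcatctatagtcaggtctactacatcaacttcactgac
The 6 bases keep the reading frame, and Eda-205 also starts this exon later, outside the stretch shown. A table with 1 value per gene does not tell the forms apart, so the values above describe both together.

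Edar, the receptor of A1 (chromosome 10, 58600789 to 58675654, minus strand), had 112 and 165 normalized counts in mutant libraries 18 and 14, against 87.2 and 116 in wild-type libraries 15 and 20. Mutant library 18 lay below wild-type library 20, so the genotypes overlapped. Edar had the largest difference of the 9, with means of 138 ± 37.9 in mutant and 102 ± 20.5 in wild type (SD, n = 2 each) and a log2 fold change of 0.43 (SE 0.29, 95% interval -0.25 to 1.11, limma adjusted p = 0.9999). The size depended on the libraries used. The log2 fold change was 0.15 without mutant library 14 and 0.71 without mutant library 18, and it was 0.22 without the female wild-type library 15 and 0.63 without wild-type library 20. All 4 values were above 0.

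Edaradd, the adaptor that joins Edar to Traf6 (chromosome 13, 12472632 to 12520438, minus strand), was the steadiest of the 9. It had 211 and 238 normalized counts in mutant libraries 18 and 14, against 213 and 241 in wild-type libraries 15 and 20. The genotypes overlapped almost fully, with means of 225 ± 18.5 in mutant and 227 ± 20.4 in wild type (SD, n = 2 each). The log2 fold change was -0.016 (SE 0.20, 95% interval -0.48 to 0.45).

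Eda2r, the receptor of form A2 (chromosome X, 97333840 to 97377216, minus strand), is also known as a target of p53. It had 155 and 89.0 normalized counts in mutant libraries 18 and 14, against 137 and 118 in wild-type libraries 15 and 20. The mutant libraries held both the highest and the lowest value. The log2 fold change was -0.11 (SE 0.31, 95% interval -0.84 to 0.62), and without mutant library 14 it changed sign, to 0.29. Eda2r is X-linked too, and without the female library 15 the log2 fold change was -0.0031.

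Tnfrsf19, also called Troy, encodes a receptor related to Edar that does not bind ectodysplasin (chromosome 14, 60963875 to 61046490, minus strand). It was the most abundant of the 9, at 4861 and 3261 normalized counts in mutant libraries 18 and 14, against 4050 and 5275 in wild-type libraries 15 and 20. The genotypes overlapped, with library 14 the lowest. The means were 4061 ± 1131 in mutant and 4663 ± 866 in wild type (SD, n = 2 each), a log2 fold change of -0.22 (SE 0.22, 95% interval -0.72 to 0.29). Without mutant library 14 it was 0.073, and without wild-type library 15 it was -0.41.

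Traf6, the ubiquitin ligase through which Edaradd and many other adaptors reach the IkB kinases (chromosome 2, 101678429 to 101701669, plus strand), had 1330 and 1255 normalized counts in mutant libraries 18 and 14, against 1257 and 1122 in wild-type libraries 15 and 20. The lower mutant value lay just under the higher wild-type value. The log2 fold change was 0.12 (SE 0.14, 95% interval -0.20 to 0.44), and it was 0.080 without mutant library 18, 0.20 without wild-type library 15 and 0.040 without wild-type library 20.

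Nfkbia encodes IkB-alpha, which holds NF-kB in the cytoplasm and is itself induced by NF-kB (chromosome 12, 55489410 to 55492647, minus strand). It had 1162 and 1035 normalized counts in mutant libraries 18 and 14, against 927 and 1124 in wild-type libraries 15 and 20. The genotypes overlapped, and the log2 fold change was 0.10 (SE 0.15, 95% interval -0.26 to 0.46). Without the female library 15, the lowest of the 4, it was -0.035.

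Relb, a Rel subunit of the non-canonical branch (chromosome 7, 19606217 to 19629438, minus strand), had 184 and 221 normalized counts in mutant libraries 18 and 14, against 220 and 183 in wild-type libraries 15 and 20. Each genotype held 1 high and 1 low library. The means were 203 ± 26.6 in mutant and 202 ± 25.7 in wild type (SD, n = 2 each), a log2 fold change of 0.0059 (SE 0.22, 95% interval -0.50 to 0.51).

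Nfkb2 encodes p100, which is cut to p52, the partner of Relb (chromosome 19, 46304320 to 46312385, plus strand). It had 503 and 479 normalized counts in mutant libraries 18 and 14, against 609 and 564 in wild-type libraries 15 and 20. Both mutant libraries lay below both wild-type libraries, with means of 491 ± 17.0 in mutant and 586 ± 31.9 in wild type (SD, n = 2 each). The log2 fold change was -0.25 (SE 0.15, 95% interval -0.61 to 0.10) and did not pass (limma, unadjusted p = 0.136, adjusted p = 0.9999). It stayed between -0.31 and -0.20 with each library left out in turn. The exons of Nfkb2 overlap those of genes on the other strand, namely Psd over 299 bases and the non-coding AC114539.1 over 531 bases, or 6.52% and 11.6% of its exon length. Whether the counting used strand is not given in the sources used here, so a part of its value may be reads of those genes. No exon of the other 8 genes overlapped another gene.

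**Figure D2:**
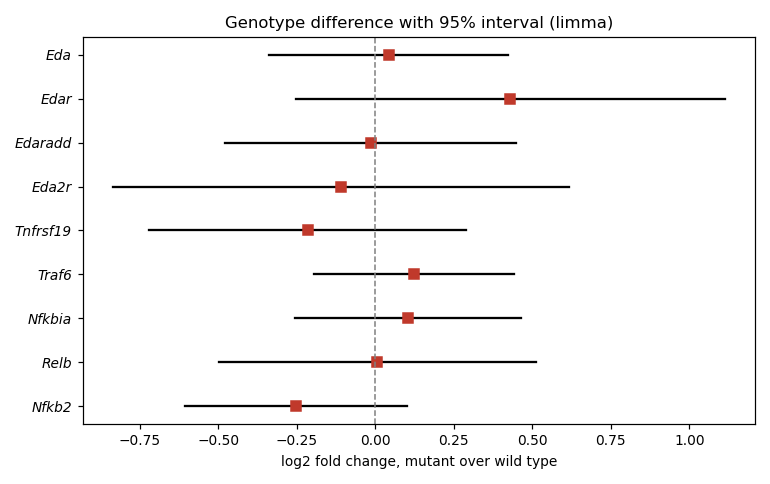
Log2 fold change of mutant over wild type for each gene (square) with its 95% interval from limma (line), 2 libraries per genotype. All 9 intervals include 0, from the widest (Eda2r, -0.84 to 0.62) to the narrowest (Traf6, -0.20 to 0.44).

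Promoter sequences were examined for the kappaB motif, the 10-base DNA site of NF-kB dimers, searched by its general consensus on both strands. RefSeq (GRCm38.p6) held windows of 300 bases, 250 before to 50 after a transcription start, for 8 of the 9 genes, the exception being Relb. At least 1 window held a match for 2 of the 8, Nfkbia and Nfkb2, and for 9.55% of all 27025 genes with a window. Nfkbia and Nfkb2 are known to be induced by NF-kB, and for each the window of the first start in the table is shown (Nfkb2 has 3 windows). Bases of a match are in capitals, and each sequence is read 5′ to 3′ on the strand of its gene, chr12:55492598-55492897 (minus) for Nfkbia and chr19:46304487-46304786 (plus) for Nfkb2.
Nfkbia: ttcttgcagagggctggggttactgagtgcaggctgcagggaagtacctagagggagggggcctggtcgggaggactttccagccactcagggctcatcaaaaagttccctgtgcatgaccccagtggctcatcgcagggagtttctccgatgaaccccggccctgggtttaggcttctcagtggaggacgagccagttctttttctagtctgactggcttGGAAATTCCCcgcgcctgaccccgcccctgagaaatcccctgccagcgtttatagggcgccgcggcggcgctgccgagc
Nfkb2: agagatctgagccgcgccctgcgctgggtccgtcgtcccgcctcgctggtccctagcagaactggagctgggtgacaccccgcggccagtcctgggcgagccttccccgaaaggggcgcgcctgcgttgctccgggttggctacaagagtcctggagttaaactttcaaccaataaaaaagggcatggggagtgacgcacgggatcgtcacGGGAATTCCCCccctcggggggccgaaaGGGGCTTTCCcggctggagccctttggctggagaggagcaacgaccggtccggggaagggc
The match of Nfkbia began 29 bases before the start. The Nfkb2 window shown had 3 matches, of which the first pair overlap, shifted by 1 base, and the third began 11 bases before the start. The other 2 windows of Nfkb2 belong to starts further downstream and overlap each other. They held GGAATGTCCC, 236 bases before the earlier of these starts, and GGGACTTTCC, which lay 10 bases after that start and, as the same bases, 225 before the later one. At least 2 matches in a window were found in 1.22% of all 32851 windows. A match describes the letters only. Of the genes with matches, Nfkbia was at 1.07-fold and Nfkb2 at 0.839-fold of wild type in mutant, neither past the test.

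Per length of exon, the 9 genes spanned a wide range, and the order of levels was led by Tnfrsf19. It averaged 857 ± 239 normalized counts per kilobase in mutant and 984 ± 183 in wild type (SD, n = 2 each, as for all levels in this paragraph). Nfkbia followed at 682 ± 56.0 in mutant and 637 ± 86.2 in wild type, and the libraries of these leading genes overlapped. Traf6 stood at 164 ± 6.74 in mutant and 151 ± 12.1 in wild type, above Nfkb2 at 107 ± 3.71 in mutant and 128 ± 6.96 in wild type. The ligand Eda was at 77.9 ± 5.87 in mutant and 75.8 ± 8.13 in wild type, and Relb at 52.1 ± 6.85 in mutant and 51.9 ± 6.62 in wild type. Transcripts of Edar, Edaradd and Eda2r were the lowest of the 9 in this bulk tissue, which gives no level per expressing cell. Edar was at 38.0 ± 10.4 in mutant and 28.0 ± 5.63 in wild type, its adaptor Edaradd at 33.7 ± 2.78 in mutant and 34.1 ± 3.06 in wild type, and Eda2r at 20.7 ± 7.92 in mutant and 21.6 ± 2.27 in wild type. Edar and Edaradd overlapped across the 4 libraries, so their order is not resolved, while every other pair of neighbours below Nfkbia was separated in all 4. The order of the mutant means was the same per kilobase of the longest coding transcript, where Eda (104) and Relb (91.7) came closer.

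**Figure D3:**
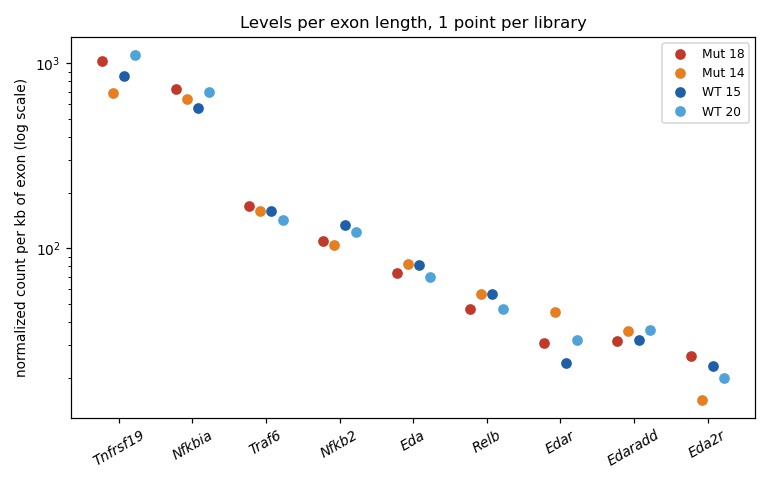
Normalized counts per kilobase of exon, on a log axis, for each gene in order of its mutant mean, with mutant libraries 18 and 14 left of wild-type libraries 15 and 20. Tnfrsf19 and Nfkbia lie far above the rest, and Edar, Edaradd and Eda2r form the low end.

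The receptor genes Edar, Eda2r and Tnfrsf19 had wider ranges between libraries than the median range of genes with a mean of at least 50. Ranges were not compared with those of genes of like level. The nearest patterns of these receptor genes came from different lists. On the log2 scale the range over the 4 libraries was 0.92 for Edar, 0.80 for Eda2r and 0.69 for Tnfrsf19, against a median of 0.34 among genes with a mean of at least 50. Nfkb2 (0.34), Nfkbia (0.33), Relb (0.27), Traf6 (0.25), Eda (0.23) and Edaradd (0.19) were near or under that median. For each gene, the most similar pattern was then sought among 113 genes of the pathway and tissue marker lists, as the smallest root mean square difference of mean-centred log2 values over the 4 libraries. These likenesses rest on 4 points that share library and dissection, and they describe the libraries only.

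Edar was nearest to 3 genes of general epithelium, Trp63 at 0.16, Cdh1 at 0.17 and Krt5 at 0.17, where its own root mean square deviation from its mean was 0.33. The 5 epithelial markers (Epcam, Cdh1, Krt5, Krt14 and Trp63) summed to 32878 and 40086 in mutant libraries 18 and 14, against 21098 and 34082 in wild-type libraries 15 and 20. Ordered by these sums the libraries fall in the same order as by Edar, with wild-type 15 lowest and mutant 14 highest. Most of each sum was Krt5 and Krt14, which had that order, as did Trp63. Epcam and Cdh1 did not, with Epcam lowest in mutant library 18 (612) and Cdh1 lowest in wild-type library 20 (1929). Eda2r was nearest to the sarcomere genes Acta1 (0.11), Ttn (0.12) and Myh3 (0.12), against its own deviation of 0.30. The 4 skeletal muscle markers summed to 95590 and 58880 in mutant libraries 18 and 14, against 90104 and 66230 in wild-type libraries 15 and 20, again in the order of Eda2r. Most of each sum was Acta1, Myh3 and Ttn, which each had that order. Myog did not, at 2463 and 2338 in mutant libraries 18 and 14, against 2068 and 2039 in wild-type libraries 15 and 20. Tnfrsf19 was nearest to the bone matrix gene Ibsp (0.081), the osteoclast receptor gene Tnfrsf11a (0.087) and its ligand gene Tnfsf11 (0.088), against its own deviation of 0.27. The 4 osteoblast markers summed to 95950 and 61326 in mutant libraries 18 and 14, against 85446 and 96359 in wild-type libraries 15 and 20, the order of Tnfrsf19, but most of each sum was Ibsp. Bglap had that order, at 1016 and 611 in mutant libraries 18 and 14, against 833 and 1281 in wild-type libraries 15 and 20. Ibsp alone did not, with mutant library 18 (85314) above wild-type library 20 (82268). Nor did the osteoblast transcription factor genes have that order. Sp7 was at 5521 and 4598 in mutant libraries 18 and 14, against 7047 and 7749 in wild-type libraries 15 and 20, and Runx2 at 4100 and 3214 in those mutant libraries, against 5201 and 5061 in those wild-type libraries. The mean log2 level of the 4 markers, 12.70 and 12.19 in mutant libraries 18 and 14 against 12.74 and 12.97 in wild-type libraries 15 and 20, placed library 18 below library 15, while Tnfrsf19 had it above. For Edar and Eda2r the mean log2 level of their marker list gave the same order as the sum. Each marker list holds at least 1 of the genes nearest to its receptor gene in these libraries. The shared orders are therefore not independent of that search.

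**Figure D4:**
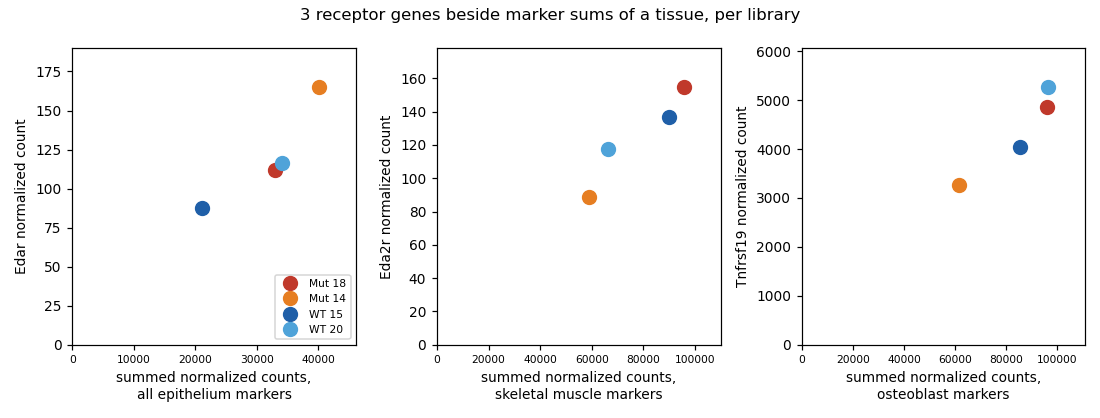
Normalized counts of Edar, Eda2r and Tnfrsf19 (vertical axes) against the summed normalized counts of epithelial, skeletal muscle and osteoblast markers (horizontal axes), 1 point per library, all axes from 0. In each panel the 4 libraries stand in the same order on both axes. Each marker list holds at least 1 of the genes nearest to its receptor gene in these same libraries, so the shared order is no independent evidence. For Tnfrsf19 this holds for the sum and not for the mean log2 level of the same markers. Nor does it hold for Ibsp alone, which makes most of the sum. The order of Edar does not hold for Epcam or Cdh1 alone, nor that of Eda2r for Myog alone. Mutant library 14 (orange) is highest for Edar and lowest for Eda2r and Tnfrsf19.

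The steadier genes were near genes that varied little. Eda was nearest to Cdh5 (0.046), Tnip2 (0.050) and Nkiras2 (0.055), Edaradd to Otulin (0.053), Wnt10a (0.071) and Gadd45b (0.072), and Traf6 to Cyld (0.052), Tnip2 (0.062) and Ikbkg (0.065). Nfkbia was nearest to Tek (0.046), Lhx8 (0.050) and Traf2 (0.056). Relb was nearest to Icam1, an adhesion gene induced by NF-kB, at 0.032, then to Nkiras2 (0.046) and Tnfrsf1a (0.054). Nfkb2 was nearest to Bcl3, an atypical IkB protein that binds p52, at 0.021, then to the inhibitor gene Nfkbie (0.060) and to Tab1 (0.064).

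Set against the epithelium of the same library, Edar was nearly constant. Its log2 level minus the mean log2 level of the 5 epithelial markers was -4.94 and -4.84 in mutant libraries 18 and 14, against -4.98 and -5.01 in wild-type libraries 15 and 20. The range shrank to 0.17, where the absolute range was 0.92. Of 13514 genes with a mean of at least 50, 10.2% had a smaller range by this measure than absolutely, and Edar was the only one of the 9 that did. For 18 of them, Edar included, the range was no larger than that of Edar (0.133%). The relative level was higher in mutant without overlap, by 0.11, and an exact two-sided permutation test gave p = 0.333, the smallest that 2 against 2 allow (0.75 after adjustment over the 9 genes). With Epcam and Cdh1 alone as the measure of epithelium the range of Edar was 0.47 and its genotypes overlapped.

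By the same measure Edaradd and Nfkb2 were lower in mutant without overlap. Edaradd stood at -4.02 and -4.31 in mutant libraries 18 and 14, against -3.70 and -3.96 in wild-type libraries 15 and 20, and Nfkb2 at -2.77 and -3.30 in those mutant libraries, against -2.19 and -2.74 in those wild-type libraries (exact permutation test, two-sided, p = 0.333 for each, adjusted 0.75). The other 6 genes overlapped. Over all genes compared in this way, 23.8% were lower in mutant without overlap and 3.83% higher, so 2 lower of 9 lies near the background. Edar was 1 higher of 9.

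The wider pathway was described with 69 other genes in 6 groups, of which 67 passed the filter on low values. None passed the test (limma, smallest adjusted p = 0.365). Of the 67, 1 had an unadjusted p under 0.05, where 4.27% of all tested genes had one. In all, 26 lay higher in mutant and 41 lower (61.2%, against 49.4% of all tested genes), with a median log2 fold change of -0.046. Genotypes did not overlap for 13 genes that were lower in mutant and 4 that were higher, or 19.4% and 5.97% of the 67, where all tested genes gave 14% and 13.4%. With 1 library left out, between 36 and 45 of the 67 lay lower.

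The 1 gene with a low unadjusted p was Shh, the Hedgehog ligand of the tooth's epithelium and a known response gene of ectodysplasin in mouse skin appendages. It had 161 and 205 normalized counts in mutant libraries 18 and 14, against 371 and 684 in wild-type libraries 15 and 20, so both mutant libraries were lower. The log2 fold change was -1.47 (SE 0.30, limma adjusted p = 0.365). Among the 10 tested response genes of skin appendages, 6 lay lower and 4 higher, with a median of -0.073. Pthlh, a hormone-like signal of epithelium, was at 166 and 193 in mutant and 230 and 220 in wild type (log2 fold change -0.33), without overlap. The forkhead gene Foxi3 was at 23.1 and 51.5 in mutant and 43.3 and 72.9 in wild type (-0.69), with overlap. The genotypes overlapped for Fgf20 (0.70), Dkk4 (0.011), Wnt10a (0.054) and Wnt10b (-0.031). Of 7 markers of dental mesenchyme 6 also lay lower in mutant, 5 of them without overlap (71.4%, against 14% of all tested genes). The 7 dental epithelium markers summed to 7438 and 4164 in mutant libraries 18 and 14, against 3776 and 9393 in wild-type libraries 15 and 20. The part of these tissues in the value of Shh was not tested.

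Rel factors and IkB proteins other than the 9 had 4 genes higher and 6 lower in mutant (median -0.031). Nfkbie was at 119 and 109 in mutant and 143 and 144 in wild type (log2 fold change -0.33), and Bcl3 at 137 and 128 in mutant and 159 and 152 in wild type (-0.23). These were the only members of the group without overlap, 20% of 10, near the 14% of all tested genes that were lower without overlap. The split of the group moved to 8 lower of 10 without mutant library 14 or wild-type library 20, and to 5 of 10 without mutant library 18 or wild-type library 15. The canonical subunit gene Rela was at 973 and 1150 in mutant and 1236 and 1120 in wild type (-0.15), with overlap.

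Of the 17 adaptors and kinases, 10 lay lower and 7 higher (median -0.038). Traf1, an adaptor induced by NF-kB, was at 113 and 64.3 in mutant libraries 18 and 14 and at 143 and 120 in wild-type libraries 15 and 20. Its log2 fold change of -0.62 was -0.22 without mutant library 14. Tab1, a partner of the kinase Map3k7, was at 726 and 744 in mutant and 835 and 812 in wild type (-0.16), and the IkB kinase gene Ikbkb at 1050 and 1089 in mutant and 1141 and 1204 in wild type (-0.13). These 3, named for the smallest p in the group, were without overlap. So were Chuk (-0.046) and Traf3 (-0.043), only slightly lower, and Ikbkg (0.14) and Traf5 (0.18), higher. That is 5 lower and 2 higher of 17, or 29.4% and 11.8%, against 14% and 13.4% of all tested genes.

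Of 14 ligands and receptors of the same family, 12 lay lower in mutant, with a median of -0.17. Without mutant library 14 the split was 7 lower and 7 higher (median -0.083). It was 10 lower without wild-type library 15 or mutant library 18, and 11 without wild-type library 20. Genotypes did not overlap for 3 lower and 1 higher, or 21.4% and 7.14% of the 14, against 14% and 13.4% of all tested genes. Cd40, a receptor of immune cells, was at 67.0 and 53.5 in mutant and 78.3 and 90.2 in wild type (log2 fold change -0.49), without overlap. Tnfrsf11b, the decoy receptor osteoprotegerin, was at 376 and 179 in mutant and 337 and 370 in wild type (-0.44), and the low value was that of library 14. The death receptor gene Tnfrsf21 lay higher, at 604 and 716 in mutant and 576 and 571 in wild type (0.20), without overlap.

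All 6 negative regulators overlapped between genotypes, as most genes did (27.4% of all tested genes did not overlap). Their median was 0.068, which was -0.063 without mutant library 18. The values of smallest p were Tnip1 at 679 and 662 in mutant and 768 and 672 in wild type (-0.10), the deubiquitinase gene Otud7b at 1773 and 1645 in mutant and 1934 and 1708 in wild type (-0.090), and Tnip2 (0.092). Response genes of NF-kB in many cell types, such as chemokines and adhesion molecules, had 5 higher and 5 lower of 10 tested (median 0.076), with 7 lower without mutant library 14 and 2 lower without mutant library 18. Vcam1 was at 805 and 905 in mutant and 752 and 618 in wild type (0.32), without overlap, while Icam1 did overlap (-0.012). The chemokine gene Cxcl1 was at 2.87 and 4.02 in mutant and 7.43 and 9.79 in wild type (-1.21), and Il1b at 0.953 and 4.05 in mutant and 7.38 and 1.97 in wild type (-0.78), both at levels of a few normalized counts.

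**Figure D5:**
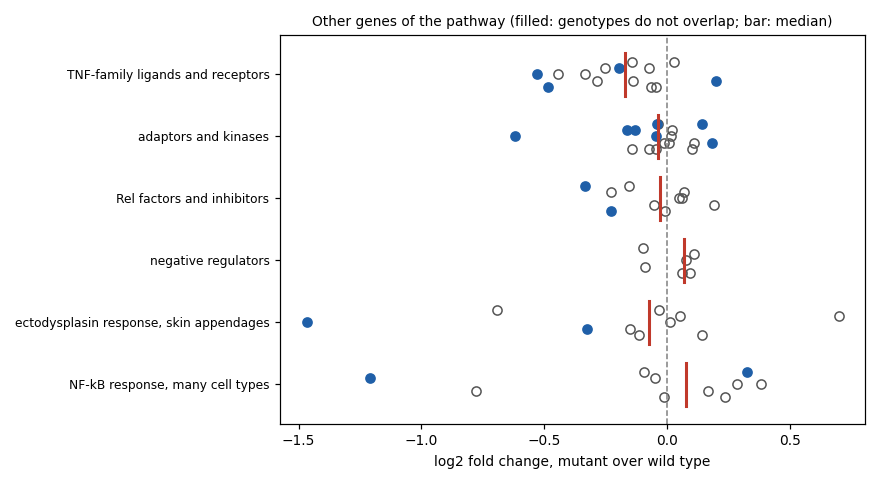
Log2 fold change of mutant over wild type for the 67 tested genes of the wider pathway in 6 groups, 1 point per gene, with a bar at each group's median. Filled points are the 17 genes whose genotypes do not overlap. Shh at -1.47 is the lowest point, and most genes lie between -0.5 and 0.5.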

How the data were processed

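The deposited table gives 1 signal value per gene and library, a count normalized by the authors. Per the submitters' processing notes, DESeq2 and build mm10 were used, with no version. The series' design text names an Illumina differential expression program. Not given in the sources used here are the aligner, the counter, its strand setting and the gene annotation. Values are not whole reads, so no count model was used and depth is unknown. Per the labels' protocols, polyadenylated RNA libraries were made with a strand-keeping kit.

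Genotype was fitted over all genes with a mean of at least 1, on log2(value + 0.5), with limma 3.58.1 (R 4.3.3, mean-variance trend, Benjamini-Hochberg, threshold 0.05); the code was tested on simulated data. Fold changes of low genes are understated on this scale. The 9 genes and all lists were chosen with earlier results of these data known. Named in the text are the 9 genes, the 3 genes of smallest p in each pathway group, Ascl5 and the 3 nearest patterns (mean of at least 20). Fgf20, Dkk4, Wnt10a, Wnt10b, Icam1, Chuk, Traf3, Ikbkg, Traf5, Sp7 and Runx2 were added after their values were seen. Coordinates, exons and transcripts are GENCODE M21 (GRCm38, the assembly of mm10). Alternatives covered scaling, pseudocount, filter, variance model, sex, threshold and each library left out.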

Additional observations from a re-analysis of the deposited data

How the results depend on the processing

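No paired analysis was possible because the library codes (15, 20, 18 and 14) are not shared between genotypes. None of the 9 genes was called under any of 16 alternatives, an unadjusted p of 0.05 included, and their adjusted p was at least 0.872. The wider pathway gave 0 calls, and 1 at an unadjusted p of 0.05. Over all genes the 2 calls became 4 with pseudocount 1, 1 with no filter, 1 with no mean-variance trend, 0 with vooma weights, 0 with sex as a covariate, 4 at an adjusted p of 0.1 and 768 at an unadjusted p of 0.05, and ranged from 0 to 6 with 1 library left out. The filter and variance settings leave a log2 fold change of the 9 genes at its main value by construction. Sex as a covariate gives the log2 fold changes of leaving out wild-type library 15, the only female library. Of 126 log2 fold changes of the 9 genes under 14 alternatives, these among them, 115 kept their direction. With 1 library left out they ran from -0.068 to 0.15 for Eda, 0.15 to 0.71 for Edar, -0.11 to 0.076 for Edaradd, -0.51 to 0.29 for Eda2r, -0.50 to 0.073 for Tnfrsf19, 0.040 to 0.20 for Traf6, -0.035 to 0.24 for Nfkbia, -0.13 to 0.14 for Relb and -0.31 to -0.20 for Nfkb2. Those that turned were Eda without wild-type 20 (-0.068) or mutant 14 (-0.035), Edaradd without wild-type 20 (0.076) or mutant 18 (0.069), Eda2r (0.29) and Tnfrsf19 (0.073) without mutant 14, Nfkbia without wild-type 15 or with sex as a covariate (-0.035 each), and Relb with quantile normalization (-0.063), without wild-type 20 (-0.12) or without mutant 14 (-0.13). Relative to epithelium, the 3 genes without overlap became 0 with Epcam and Cdh1 alone, and 3 to 9 with 1 library left out, where 1 genotype has a single value. Relative differences turned for Eda (0.048), Traf6 (0.10) and Relb (0.033) without wild-type 15, and for Eda2r (0.196), Traf6 (0.071) and Nfkbia (0.094) without mutant 14. With 1 library left out the lowest relative differences of these were -0.61 for Eda, -0.50 for Traf6, -0.66 for Relb, -1.06 for Eda2r and -0.53 for Nfkbia. For values with 1 library left out, fewer samples are the construction of the setting. The same holds for sex as a covariate, where the only female library has a term of its own. For the others the cause was not tested. With 2 libraries per genotype and unknown depth, changes of the size of the intervals given were not detectable.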
